A study of Mus musculus with 12 samples.

Results

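Contacts between pairs of captured promoters were described in mouse haematopoietic stem cells (HSCs) of the fetal liver and of the adult bone marrow. A contact was a member if it joined a captured promoter fragment to a bin of 2 kb on the same chromosome, lay over 20 kb away (middle of the fragment to middle of the bin), and had another captured promoter fragment in that bin. Bins that carried a bivalent promoter or a poised enhancer mark in either population were left out, which removed 90 contacts. Of 89545 listed contacts, 5256 were members, against 85560 that met the same conditions on distance and marks whatever the bin held. They joined 3188 pairs of promoter fragments and 2769 pairs of different genes. These pairs involved 2389 of the 3374 captured genes, while 985 captured genes had no partner among the members. A further 60 pairs of fragments were alternative promoters of 1 gene.

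Promoters of different genes can lie close together in the nucleus when chromatin folds into loops and domains, and promoters of active genes are often found together. Promoter Capture-C measures such closeness. Cross-linked chromatin is cut, here with DpnII, neighbouring ends are ligated, and ligation products of chosen promoters are pulled out with probes and sequenced. In blood, contacts of the globin, Hox and stem cell regulator genes have been studied most with such methods. A contact between promoters does not show that either gene acts on the other.

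Fetal HSCs came from livers at embryonic day 14.5, and adult HSCs from bone marrow of mice aged 6 to 8 weeks. Both were of the B6129SF1 strain, with no treatment named, and were sorted as Lin-Sca1+cKit+CD135- cells, a gate that holds stem cells and multipotent progenitors and leaves out cells bearing Flt3 (CD135). Each population had 4 libraries, 2 in each of 2 batches, and the batches captured nearly separate sets of promoters. The remaining 4 of the 12 samples, HPC7 cells (a mouse progenitor line), wild type or TCF3 knockout, at passages 13 to 20, were not analysed here. Deposited values were pooled per population and batch. The spread between libraries or animals is therefore unknown, and no test was run. All intervals are exact Clopper-Pearson 95% intervals for counting error, and pairs that share a gene make them too narrow.

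Promoter windows of Klf1, Nfix and Prdx2 are shown first because the contacts of Klf1 with Nfix and with Prdx2 had opposite orders in the populations. Klf1 encodes an erythroid transcription factor that binds CACCC boxes, Nfix encodes a nuclear factor I protein, and Prdx2 encodes an antioxidant enzyme abundant in red cells. The windows come from RefSeq on GRCm38.p6 and run from 250 bases before to 50 bases after a gene's start. They lie at chr8:84901732-84902031 (plus strand), chr8:84780033-84780332 (minus strand) and chr8:84969372-84969671 (plus strand). Nfix has 4 windows, of which the furthest upstream is shown. This Nfix window lies farther from the Klf1 window than the 100 kb of the contact of Klf1 with Nfix. The captured Nfix fragment is thus taken to lie away from the window shown. Capitals mark the letters CACCC or GATAA on either strand, where GATAA is the core of the word that GATA factors bind. Of 32851 windows of this length, 57.5% held CACCC and 25.4% held GATAA.
Klf1: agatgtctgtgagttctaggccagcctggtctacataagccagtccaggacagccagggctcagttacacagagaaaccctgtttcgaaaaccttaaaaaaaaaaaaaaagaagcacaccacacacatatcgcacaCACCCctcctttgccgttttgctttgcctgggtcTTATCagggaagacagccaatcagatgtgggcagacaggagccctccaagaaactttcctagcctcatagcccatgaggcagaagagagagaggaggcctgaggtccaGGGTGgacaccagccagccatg
Nfix: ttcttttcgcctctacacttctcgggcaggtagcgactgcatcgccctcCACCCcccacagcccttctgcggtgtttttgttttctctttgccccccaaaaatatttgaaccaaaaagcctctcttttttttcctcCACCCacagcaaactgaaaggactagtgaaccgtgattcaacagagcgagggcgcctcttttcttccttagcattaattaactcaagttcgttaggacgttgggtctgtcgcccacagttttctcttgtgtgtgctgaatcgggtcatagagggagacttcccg
Prdx2: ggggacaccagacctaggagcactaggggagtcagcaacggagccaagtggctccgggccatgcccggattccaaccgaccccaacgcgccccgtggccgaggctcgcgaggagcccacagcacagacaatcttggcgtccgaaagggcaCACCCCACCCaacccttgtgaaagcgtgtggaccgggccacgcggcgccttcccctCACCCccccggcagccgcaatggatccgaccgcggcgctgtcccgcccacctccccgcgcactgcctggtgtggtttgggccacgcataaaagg
The Klf1 window held CACCC 2 times and GATAA 1 time. In the Nfix and Prdx2 windows CACCC occurred 2 and 3 times. These letters are a description of the windows, not a record of binding. Captured fragments are given on mm9, the build of the deposited table, and were not converted.

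Some captured promoters belong to gene copies whose sequences are alike, so that reads of 1 copy can be placed on the other. Kifc1 and Kifc5b (kinesin motor genes) and Ctla2a and Ctla2b (genes of small proteins related to protease propeptides) are shown because their contacts were among the strongest listed. Capitals mark runs of at least 20 bases that also occur in the partner's window. The windows lie at chr17:33890584-33890883 (minus strand), chr17:26916841-26917140 (plus strand), chr13:60936576-60936875 (minus strand) and chr13:60897398-60897697 (minus strand).
Kifc1: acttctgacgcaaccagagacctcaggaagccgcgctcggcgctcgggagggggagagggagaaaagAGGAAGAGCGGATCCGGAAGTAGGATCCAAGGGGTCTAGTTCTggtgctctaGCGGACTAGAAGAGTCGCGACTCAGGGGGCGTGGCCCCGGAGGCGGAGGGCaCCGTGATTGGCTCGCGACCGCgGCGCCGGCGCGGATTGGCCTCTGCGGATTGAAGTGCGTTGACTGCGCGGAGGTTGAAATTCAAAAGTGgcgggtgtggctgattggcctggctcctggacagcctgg
Kifc5b: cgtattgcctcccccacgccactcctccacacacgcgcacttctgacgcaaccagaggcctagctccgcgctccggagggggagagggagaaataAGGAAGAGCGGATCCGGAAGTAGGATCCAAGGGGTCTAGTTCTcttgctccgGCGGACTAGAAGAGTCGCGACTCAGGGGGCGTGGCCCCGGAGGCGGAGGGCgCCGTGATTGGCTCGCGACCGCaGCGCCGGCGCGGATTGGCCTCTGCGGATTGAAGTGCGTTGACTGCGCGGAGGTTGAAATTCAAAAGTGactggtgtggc
Ctla2a: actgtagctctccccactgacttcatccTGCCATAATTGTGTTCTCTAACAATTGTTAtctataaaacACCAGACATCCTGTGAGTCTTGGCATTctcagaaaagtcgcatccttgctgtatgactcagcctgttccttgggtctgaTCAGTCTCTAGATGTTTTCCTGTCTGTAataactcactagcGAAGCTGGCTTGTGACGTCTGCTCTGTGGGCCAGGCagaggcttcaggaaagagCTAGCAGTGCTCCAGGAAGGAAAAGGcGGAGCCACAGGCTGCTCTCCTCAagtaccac
Ctla2b: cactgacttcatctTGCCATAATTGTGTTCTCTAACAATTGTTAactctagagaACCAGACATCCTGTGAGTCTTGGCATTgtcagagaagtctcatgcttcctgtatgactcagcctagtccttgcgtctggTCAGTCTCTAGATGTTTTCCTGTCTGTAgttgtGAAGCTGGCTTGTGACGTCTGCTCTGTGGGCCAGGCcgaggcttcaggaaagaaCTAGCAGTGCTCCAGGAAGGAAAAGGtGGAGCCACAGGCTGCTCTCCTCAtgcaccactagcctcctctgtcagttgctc
In Kifc1 and Kifc5b 183 of 300 bases were in such runs, and the longest run was 68 bases. In Ctla2a and Ctla2b 170 bases were in such runs, the longest of 36 bases. Windows of both genes were found for 1999 of the 2769 gene pairs, and 7 of these shared at least 10% of their words of 20 bases. The 7 had a median fetal count of 946 and a median adult count of 378, against 22 and 20 for the pairs under that share. The relation was loose. Gm15446/Zfp932 shared no such word and had 8622 fetal and 5260 adult counts, while Arvcf/D16H22S680E shared 58.4% and had 67 and 82. Pairs of 1 family by symbol had median counts of 24 and 21, against 22 and 19 for the rest. Counts of gene copies are given as uncertain throughout, whatever their size.

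Depth limits what single contacts can show. A deposited count is the number of ligation products assigned to a contact in a population and batch. In the first batch the median member had a fetal count of 13 and an adult count of 12. In the second these medians were 34 and 30. Scores resemble −log10 values of p, and the lowest above 0 was 1.3 in the first batch and 2.0 in the second. A contact is called in a population where its score is above 0. Over all listed contacts, fetal counts made up 54.4% of the first batch and 52.6% of the second. Members were spread from 20.0 kb to 32007 kb, with a median of 137 kb, against 134 kb for the other contacts. By batch the order differed, with 162 kb against 175 kb in the first and 116 kb against 91.1 kb in the second.

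Contacts between captured promoters were called in both populations more often than contacts with bins that held neither a captured promoter nor an active promoter mark. In the first batch 40.2% of 2603 members were called in both (38.3% to 42.1%), against 21.9% for bins of neither kind. In the second batch 53.3% of 2653 members were called in both (51.4% to 55.2%), against 33.2%. Over all contacts under the same conditions, 25.1% of the first batch and 36.7% of the second were called in both. The share of members was higher than that of bins of neither kind in 8 of 8 combinations of batch and distance class. Members also had higher counts. In the first batch their fetal and adult medians were 13 and 12, against 9 and 8 for bins of neither kind. In the second batch they were 34 and 30, against 26 and 23. The part of the counts in the calls was not tested.

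Other bins with an active promoter mark came close to the members. They were called in both populations in 38.9% of contacts in the first batch (37.7% to 40.2%) and in 48.5% in the second (47.2% to 49.9%). In the first batch the intervals of members and of these bins overlapped, and in the second batch they did not. The gap of the second batch moved with where the partner was captured. Where the partner was also captured in the second batch, 56.0% of 1863 contacts were called in both (53.8% to 58.3%). Where it was captured in the first batch only, 46.8% of 790 were (43.3% to 50.4%), a share whose interval holds that of the other active promoter bins. In the first batch 622 of 1543 contacts (40.3%) and 424 of 1060 were called in both, with intervals of 37.9% to 42.8% and 37.0% to 43.0%. Probes at both ends enrich a ligation product from either side, and the part of this in the calls was not tested.

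**Figure D1:**
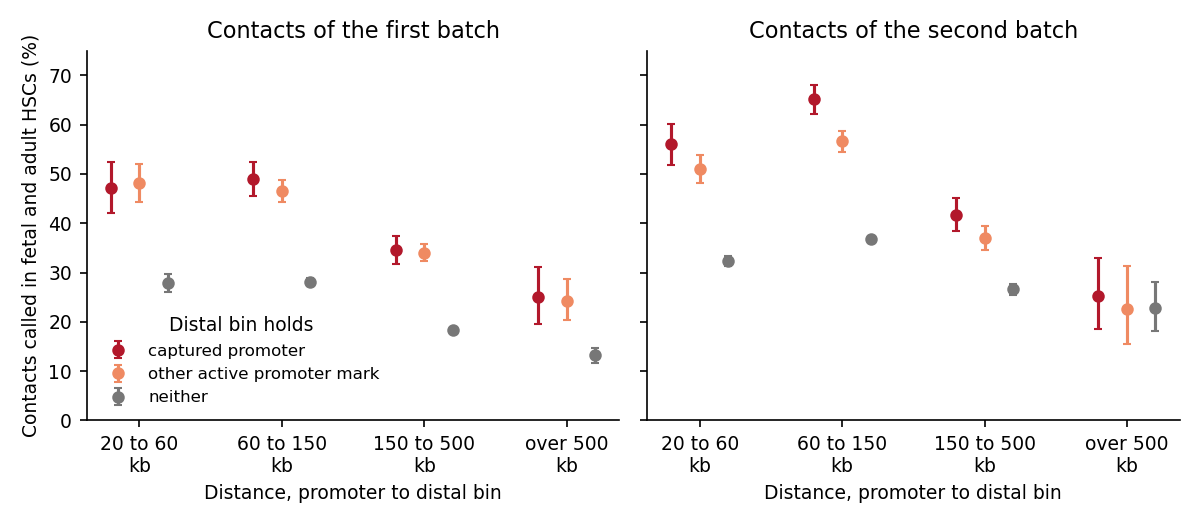
Share of contacts called in fetal and adult HSCs (percent, vertical axis) by distance class (horizontal axis) and by what the distal bin held, in each batch. Points are shares and bars exact 95% intervals for counting error. At 60 to 150 kb of the second batch members reached 65.2%, other active promoter bins 56.6% and bins of neither kind 36.7%.

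Calls in a single population split differently by batch. Fetal-only calls made up 23.9% of members in the first batch and 23.4% in the second, against 39.1% and 33.9% of all contacts. Adult-only calls made up 35.9% and 23.3% of members, against 35.8% and 29.4%. In the first batch, fetal-only calls were thus 39.9% of the members called in 1 population, against 53.1% for bins of neither kind. In the second batch the same shares were 50.2% and 54.1%. Pooled over distance, adult-only calls thus outnumbered fetal-only ones in the first batch and not in the second. At 20 to 60 kb they did so in both, where the first batch held 147 adult-only and 54 fetal-only members and the second 224 and 19. Bins of neither kind showed the same order at that distance, and the fetal share of members was lower than theirs in 7 of 8 combinations of batch and distance.

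A call in 1 population did not always go with the higher count there. Among adult-only members of the first batch, 147 of 935 (15.7%) had an adult count no higher than the fetal count, a larger share than among all adult-only contacts of that batch (4.595%). For the second batch this was 115 of 617 (18.6%), against 17.01%. Among fetal-only members it was 16 of 622 (2.57%) and 25 of 622 (4.02%), against 0.966% and 0.951% of all fetal-only contacts. With each batch's median ratio taken off, the adult-only numbers were 115 and 65 and the fetal-only numbers 16 and 39. S100a8/S100a9 is such a pair, called in fetal only with 61 fetal and 70 adult counts. Counts are therefore printed beside each call.

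Most members were listed from both ends where both fragments had been captured in 1 batch. There, 78.6% of 3150 links were also listed from the partner's promoter (77.1% to 80.0%). Contacts called in both populations were listed from the other end in 93.4% of cases, fetal-only ones in 57.2% and adult-only ones in 67.8%. With the fragments captured in different batches, 52.4% of 1704 links were found again. The share was again highest for contacts called in both populations, at 66.8%, against 37.6% for fetal-only and 42.9% for adult-only ones.

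The difference between fetal and adult counts carried over between ends within a batch far more than between batches. Within a batch, 1000 of 1261 pairs (79.3%) had the same sign of the log2 count ratio from both ends, after each batch's median was taken off. Spearman's rho across these pairs was 0.76, and both ends share libraries and, in part, ligation products. Between batches, 260 of 446 pairs (58.3%, 53.6% to 62.9%) had the same sign, with a rho of 0.21. Of 95 pairs called in a single population in each batch, 54 were called in the same population and 41 in the other (56.8%, 46.3% to 67.0%). Within a batch 310 of 356 such pairs (87.1%) were called in the same population.

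**Figure D2:**
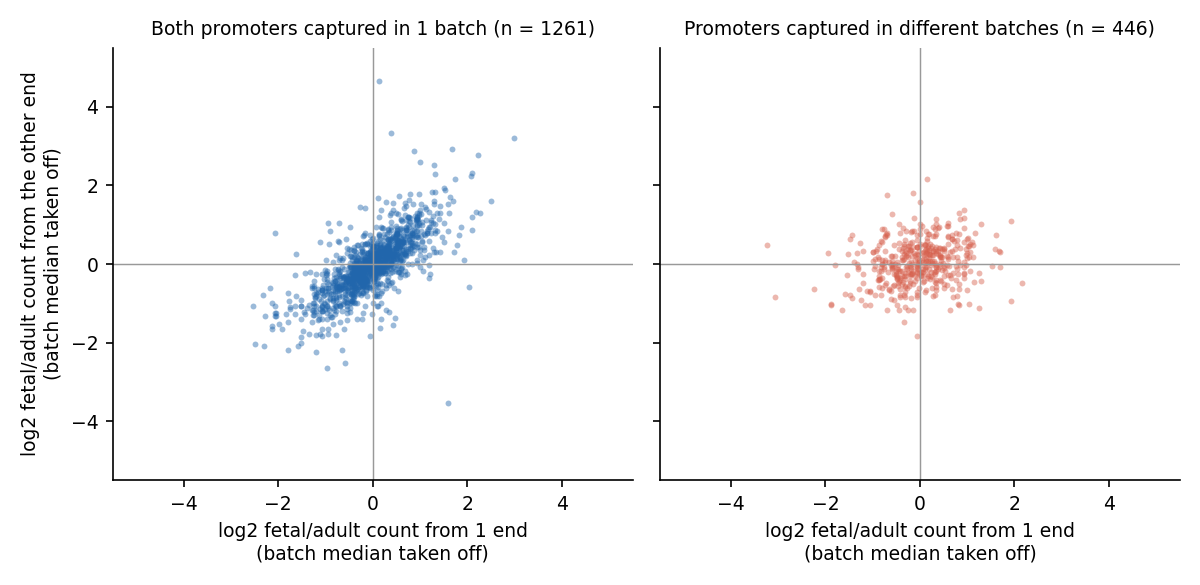
Log2 ratio of fetal to adult counts with 1 added, less the batch median, seen from 1 promoter (horizontal axis) and from its partner (vertical axis). Each point is a pair of fragments. The 1261 pairs captured in 1 batch follow the diagonal (rho 0.76), while the 446 pairs captured in different batches do so weakly (rho 0.21).

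Some pairs of fragments kept their class across batches. Of 79 pairs called in fetal only in the first batch, 35 were called in both populations in the second, 26 in fetal only and 18 in adult only. Of 102 called in adult only, 51 were called in both, 28 in adult only and 23 in fetal only. Of 265 called in both in the first batch, 170 were called in both in the second, 52 in fetal only and 43 in adult only. The pairs named next were chosen because their class was the same in the 2 batches. Between 1 fragment of H19 and Lsp1 the contact was fetal only in either batch, with 15 fetal against 4 adult counts in the first and 44 against 23 in the second. Another H19 fragment had a first-batch contact with Lsp1 called in both populations, with 11 and 12 counts. Spic to Chpt1 was also fetal only, with 12 against 6 and 21 against 7 counts. Tbxas1 to Parp12 was adult only, with 4 against 14 and 12 against 25 counts. Tfrc to Tctex1d2 was fetal only with 8 against 4 and 28 against 16 counts, where Tfrc encodes the transferrin receptor that takes up iron.

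A few promoters had many partners. Ing4, which encodes a subunit of histone acetyltransferase complexes, had 12 partner genes on chromosome 6 at 91.4 to 377 kb. Its captured fragment is chr6:124989260-124989851 (mm9). Of the 12 pairs, 5 were called in both populations, 3 in fetal only and 4 in adult only. The FPKM of Ing4 was 13.4 in fetal and 16.4 in adult HSCs, and its partners included Cdca3, Phb2, Tpi1 and Lag3. Kifc1 and Msh5, both on chromosome 17, had 11 partners each. Cdca3, Lsm2 and Ssna1 had 10 each. The partners of Kifc1 include its copy Kifc5b, 6973 kb away, and Phf1, 6957 kb away. Since reads of such copies can be exchanged, the number for Kifc1 is uncertain. Among all captured genes, 978 had 1 partner, 1178 had 2 to 4 and 233 had 5 or more.

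The longest pairs called in both populations included gene copies. Kifc1/Kifc5b, 6973 kb apart, had 13357 fetal and 10804 adult counts and infinite scores. H2-K1/H2-Q4, 1380 kb apart, had 711 and 487 counts from H2-K1 but 16 and 41 from H2-Q4, and these class I histocompatibility genes also belong to 1 family. Glrx3/Ppp2r2d, 1409 kb apart on chromosome 7, has symbols of different families, with 49 fetal and 22 adult counts. From its other end Ppp2r2d listed Glrx3 with 39 and 21 counts, so that both ends were higher in fetal HSCs. Hyls1/Stt3a had 13 and 8 counts at 1198 kb, and Chek1/Hyls1 10 and 8 counts at 1157 kb.

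The distal bins of members usually looked like active promoters. An ATAC mark, which stands for open chromatin, was set for 93.6% to 95.5% of them, by batch and population. Other bins with an active promoter mark were alike, with 94.7% to 95.3%. Bins of neither kind, which lack that mark by definition, had 39.2% to 43.7%. In the bins of members the active promoter mark was set for 66.5% to 73.7%. It followed the partner's expression. With a partner at FPKM 1 or more, 68.3% of bins carried the mark in fetal and 72.5% in adult HSCs. With a partner under FPKM 1, 45.1% did in fetal and 21.1% in adult HSCs.

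Both genes of a contacting pair were usually expressed. FPKM is a level corrected for transcript length and sequencing depth. Of the 2769 pairs, 76.6% had both genes at FPKM 1 or more in fetal HSCs and 88.4% in adult HSCs. A single gene reached FPKM 1 in 20.6% and 10.7% of pairs, and neither gene did in 2.78% and 0.975%. The median level was 16.6 FPKM for the higher and 3.01 for the lower gene of a pair in fetal HSCs, and 14.1 and 3.51 in adult HSCs.

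Pairs of captured genes with no listed contact were less often expressed together. Within 1 Mb there were 7885 such pairs, of which 68.3% had both genes at FPKM 1 or more in fetal HSCs (67.3% to 69.4%) and 80.2% in adult HSCs (79.3% to 81.1%). The 2722 contacting pairs within 1 Mb had 76.5% (74.8% to 78.0%) and 88.2% (87.0% to 89.4%). At 60 to 150 kb the shares were 75.8% with and 60.3% without a contact in fetal HSCs. In adult HSCs at that distance they were 87.6% and 81.9%. The order held in all 4 distance classes and both populations. Contacts whose bin carried a bivalent or poised mark were left out, while pairs without a contact were taken whatever the marks of their promoters. The part of this in the gap was not tested. Levels of the genes of a pair were weakly related, with a rho of 0.15 in fetal and 0.11 in adult HSCs across 2769 pairs. Without a contact it was 0.02 in either population, over pairs that lay farther apart (median 563 kb against 156 kb). These values were not split by distance, and its part in the gap was not tested.

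**Figure D3:**
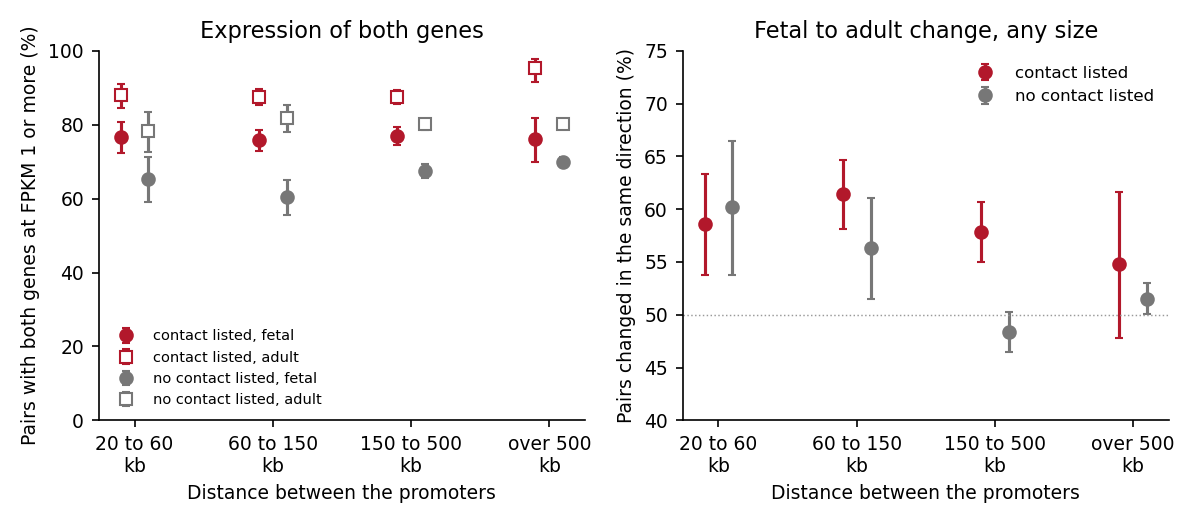
Left, share of gene pairs with both genes at FPKM 1 or more by distance class, for pairs with and without a listed contact in fetal and adult HSCs. Right, share of pairs whose genes changed in the same direction between fetal and adult HSCs, with the dotted line at 50%. Bars are exact 95% intervals. At 150 to 500 kb the right panel shows 57.9% with and 48.4% without a contact.

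The fetal to adult change of the genes of a pair was shared slightly more often than not. On the scale of log2(FPKM + 1), 1627 of 2763 pairs (58.9%, 57.0% to 60.7%) changed in the same direction, whatever the size. Within 1 Mb the share was 58.9% with a contact (57.0% to 60.8%) and 51.0% without (49.9% to 52.1%). At 20 to 60 kb pairs without a contact were as high, with 60.2% (53.8% to 66.4%) against 58.6% (53.7% to 63.3%). The gap was widest at 150 to 500 kb, with 57.9% (55.0% to 60.7%) against 48.4% (46.5% to 50.3%). Spearman's rho across pairs, as a description, was 0.22, 0.26, 0.15 and 0.08 from the nearest to the farthest class with a contact. Without a contact it was 0.23, 0.08, −0.04 and 0.03. Pairs without a contact lay farther apart within the class of 150 to 500 kb, with a median of 338 kb against 247 kb.

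Larger changes were rare. Both genes differed at least 2-fold in 171 pairs, of which 27 were higher in fetal, 92 were higher in adult and 52 went opposite ways. Of all promoter entries, 8.12% were at least 2-fold higher in fetal and 14.6% in adult HSCs. The 119 pairs changed the same way were 4.30% of contacting pairs, near the 4.07% of pairs without a contact, so that their number is no result about contacts. Of the 171 pairs, 119 (69.6%, 62.1% to 76.4%) went the same way. Without a contact the share was 56.9% (52.7% to 61.0%), over pairs that lay farther apart. At 20 to 60 kb it was 82.9% with and 87.5% without a contact, and at 150 to 500 kb 51.9% and 50.2%. At 60 to 150 kb 78.7% did with a contact (67.7% to 87.3%) and 65.7% without (47.8% to 80.9%), intervals that overlap. In the authors' deposited table, both genes carried the mark of differential expression in 23 of the 27, 88 of the 92 and 48 of the 52 pairs. That mark was set for 66.7% of promoter entries in the authors' deposited table.

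**Figure D4:**
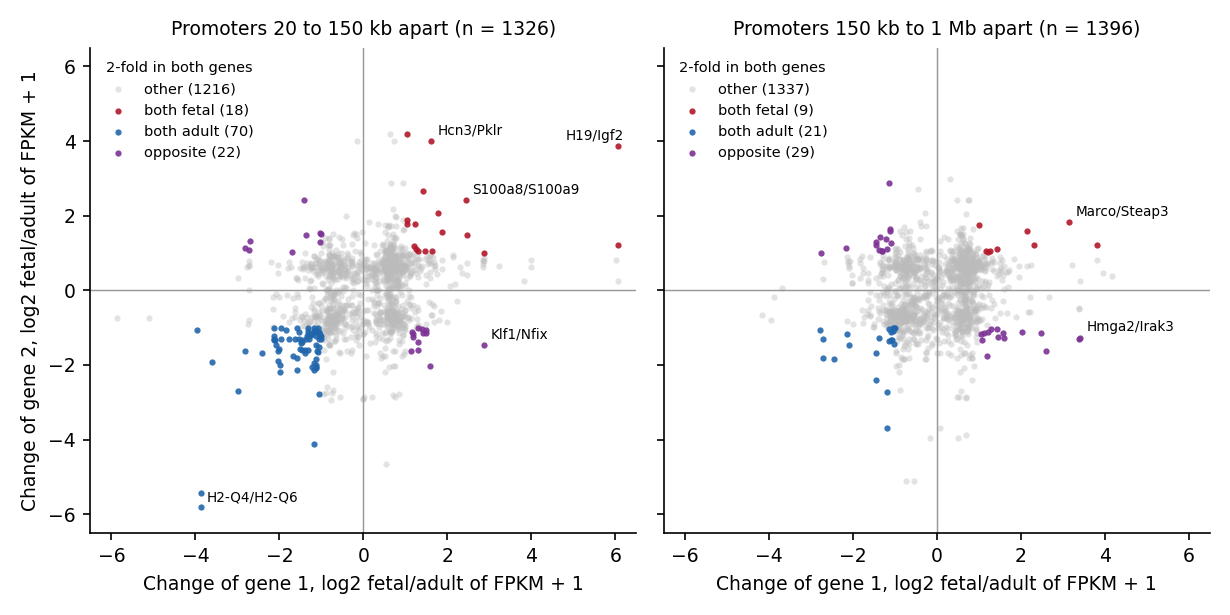
Change of both genes of each contacting pair on the scale of log2 fetal over adult of FPKM + 1, for promoters 20 to 150 kb apart (left, n = 1326) and 150 kb to 1 Mb apart (right, n = 1396). Each point is a gene pair, coloured where both genes differed at least 2-fold. On the left 18 pairs were higher in fetal, 70 higher in adult and 22 opposite, and on the right 9, 21 and 29.

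The 27 pairs higher in fetal HSCs are described by examples chosen after their values were seen. H19 and Igf2, neighbours that encode a non-coding RNA and a growth factor, had 209 and 21.7 FPKM in fetal against 2.15 and 0.561 in adult HSCs. Their contact of 79.2 kb was called in adult only, with 16 fetal and 11 adult counts, so that the call and the counts point opposite ways. Hcn3/Pklr had 201 fetal and 124 adult counts at 23.1 kb. Pklr, the pyruvate kinase of red cells and liver, had 30.3 FPKM in fetal and 0.965 in adult HSCs. Id1/Zcchc3 was called in fetal only with 26 against 8 counts, and Birc5/6030468B19Rik with 50 against 16. Birc5, which encodes survivin, had 28.2 FPKM in fetal and 8.83 in adult HSCs. Fen1, a replication nuclease gene, contacted Incenp with 41 against 25 counts from Incenp in the second batch and 17 against 17 from Fen1 in the first. Plk1, a mitotic kinase gene, was contacted by Gga2 in fetal only with 19 against 12 counts.

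Some pairs of this group held markers of other cell types. Of the 27 pairs, 5 held a gene of the erythroid, macrophage, granulocyte or megakaryocyte lists, against 27 of all 2769 pairs. Of the 52 opposite pairs 5 did, and of the 92 pairs higher in adult 0 did. Pairs were grouped by the FPKM of these same genes, so the direction of the markers in the group is no separate result. Marco/Steap3 was called in fetal only with 7 against 2 counts, and Marco, a macrophage receptor, had 7.99 FPKM in fetal and 0.00996 in adult HSCs. S100a8/S100a9, genes of neutrophil proteins, had 14.0 and 9.36 FPKM in fetal against 1.76 and 0.925 in adult HSCs. The others were Atp1b2/Cd68, Acp5/Epor and Klf1/Prdx2. Summed over captured markers, erythroid genes had 69.5 FPKM in fetal and 17.05 in adult HSCs. Macrophage genes (5 of 7 captured) had 22.9 and 2.05, and granulocyte genes (4 of 5) had 80.6 and 6.11. Their part in these results was not tested. Among 8 captured of 10 stem and progenitor markers, 8 were at FPKM 1 or more in either population. Flt3, which the sort leaves out, was at 6.20 and 3.81 FPKM. In bulk populations, more cells of a type and more RNA per cell cannot be told apart.

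Among the 92 pairs higher in adult HSCs, 23 lay on chromosome 17, against 266 of all 2769 pairs (9.61%). Another count of 23, partly the same pairs, joined members of 1 family by symbol, against 109 of all pairs (3.94%). This was not particular to the group. Family pairs also made up 5 of the 27 pairs higher in fetal HSCs (18.5%), and 2 of the 52 opposite pairs (3.85%). Among 9 pairs of H2 genes, 7 were at least 2-fold higher in adult at both genes, and none was higher in fetal or opposite. H2-Q4 had 3.71 FPKM in fetal and 68.1 in adult HSCs, H2-Q6 0.0781 and 59.8, and H2-K1 76.1 and 507. The contact H2-Q4/H2-Q6 at 44.4 kb had 45 fetal and 11 adult counts from H2-Q4, and 45 and 22 from H2-Q6. Counts were thus higher in fetal HSCs where the RNA of both genes was higher in adult. Contacts of the antigen-processing genes Tap1, Tap2 and Psmb9 with H2 genes were in the same group. H2-DMa/Tap2 was called in both populations, with 47 fetal and 35 adult counts from H2-DMa in the second batch and 24 and 29 from Tap2 in the first. The promoter of Gm20496 was captured in the same bin as that of Tap2. H2-K1/Tap1 was called in adult only with 8 and 13 counts.

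Other families showed the same direction of RNA. Among 12 pairs of Trim genes, 7 were at least 2-fold higher in adult at both genes, and among 5 Gbp pairs 2 were. None of 24 Zfp pairs differed 2-fold at both genes, although both were higher in adult by some amount in 22. By call, 2 of the 12 Trim pairs were fetal only and 8 adult only, and 2 and 8 of the 24 Zfp pairs. Of the 9 H2 pairs 1 was fetal only and 3 adult only, and of the 5 Gbp pairs 2 and 0. Counts of some pairs of gene copies, picked for their size, were far higher in fetal HSCs. Tgtp1/Tgtp2, interferon-induced GTPases, had 104 fetal and 3 adult counts, with a fetal share of 97.2% (92.0% to 99.4%), but 31 and 27 from the Tgtp1 end. Trim12a/Trim12c had 134 and 13 counts, and 37.4% of the words of 20 bases in their windows were shared. Ctla2a/Ctla2b had 946 and 378 counts, while its genes had 11.6 and 3.67 FPKM in fetal against 50.7 and 16.5 in adult HSCs. Ms4a6b/Ms4a6c had 8799 and 831 counts from Ms4a6b and 950 and 697 from Ms4a6c, with 12.1% of words shared. These values are uncertain, since reads of near-identical copies can be exchanged, and the part of this in the counts was not tested.

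Pairs higher in adult HSCs with no likeness of symbol were also found. Ltbp3/Neat1, a TGF-beta binding protein and a nuclear non-coding RNA, had 9.44 and 28.5 FPKM in adult against 0.326 and 3.51 in fetal HSCs. Its contact was called in fetal only, with 32 fetal and 24 adult counts. Cd9/Vwf, a tetraspanin and von Willebrand factor of megakaryocytes and endothelium, was called in fetal only with 37 and 14 counts. The captured megakaryocyte markers summed to 20.6 FPKM in fetal and 158 in adult HSCs, and their part in this pair was not tested. Nrgn/Robo3 had 37 and 76 counts, the order of its RNA. Ninj1, Fgd3 and Susd3 on chromosome 13 were called with each other in both populations, with 72 and 47 counts for Fgd3/Ninj1.

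Pairs whose genes went opposite ways had a median distance of 174 kb, against 98.6 kb for pairs higher in adult and 111 kb for pairs higher in fetal HSCs. Over all 2769 pairs the median was 156 kb, nearer to that of the opposite pairs. Hbb-y, an embryonic beta-globin gene, had 5.16 FPKM in fetal and 0.0177 in adult HSCs, and its partner Trim30b had 0.253 and 2.89. The contact, 514 kb apart, rested on 6 fetal and 2 adult counts. Fam69b/Egfl7 was called in both populations with 29 and 40 counts, while Egfl7 had 80.1 FPKM in fetal and 26.1 in adult HSCs and Fam69b 2.10 and 11.6. Tctex1d2/Tfrc was called in fetal only with 28 and 16 counts.

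Contact counts were higher in fetal HSCs for pairs whose RNA was higher there, but not lower for pairs whose RNA was higher in adult. After the batch median was taken off, pairs higher in fetal HSCs had a median log2 count ratio of 0.57 in the first batch (n = 5) and 0.46 in the second (n = 22). Pairs higher in adult HSCs had 0.23 (n = 36) and 0.04 (n = 56), both above 0. The pairs without a 2-fold change in both genes had −0.003 (n = 1230) and 0.03 (n = 1368). The quartiles of the fetal pairs in the second batch were 0.23 and 0.83, and those of the adult pairs −0.55 and 0.32. By call, 11 of the 27 fetal pairs were called in fetal only and 4 in adult only, and 15 and 28 of the 92 adult pairs. Of the 2598 pairs without a 2-fold change in both genes, 570 (21.9%) were called in fetal only and 581 (22.4%) in adult only.

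Among regulators of blood stem cells and fetal genes, 24 of 44 captured genes of a list of 45 had a partner promoter. Of all 3374 captured genes, 2389 had a partner, a larger share. The 24 listed genes formed 58 pairs, of which 30 were called in both populations, 11 in fetal only and 17 in adult only. Of all 2769 gene pairs, 1528 were called in both, 617 in fetal only and 624 in adult only. For 97 contacts of the listed genes the 95% interval of the fetal share of counts held the share of the batch. It lay above that share for 14 contacts and below it for 9. The same was not counted over all members.

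Klf1 on chromosome 8 showed contacts in either direction. Its captured fragment, chr8:87424745-87426183 (mm9), was an end of 10 listed contacts, of which 5 had a higher fetal and 5 a higher adult count. Of these, 2 were called in both populations, 2 in fetal only and 6 in adult only. Klf1 itself had 24.0 FPKM in fetal and 2.40 in adult HSCs. With Nfix, 100 kb away, it had 12 fetal and 50 adult counts, a fetal share of 19.4% (10.4% to 31.4%) against 52.6% in the batch. From the Nfix end the counts were 19 and 47, again lower in fetal HSCs, and a neighbouring bin of Nfix had 24 and 28. All 3 were called in adult only, and Nfix had 4.39 FPKM in fetal and 13.8 in adult HSCs.

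The contact of Klf1 with Prdx2, 67.5 kb to the other side, had the opposite order. It had 58 fetal and 27 adult counts from Klf1 and 45 and 22 from Prdx2, and either interval of the fetal share (57.2% to 77.9%, 54.6% to 78.2%) lay above that of the batch. Prdx2 had 93.9 FPKM in fetal and 46.1 in adult HSCs. Rnaseh2a, a ribonuclease subunit gene captured in the same bin, cannot be told apart from Prdx2 as the partner. G430095P16Rik was called in fetal only with 57 and 20 counts at 178 kb, although its RNA was higher in adult (5.14 and 12.5 FPKM). Counts with Syce2 and Farsa were near equal, with 68 and 69 and with 41 and 39 counts, yet both were called in adult only. From the Farsa end, in the first batch, the contact was adult only with 22 and 32 counts. The RNA of Klf1 and Prdx2 was higher in fetal HSCs, as was the sum of erythroid markers, and the part of erythroid cells in these contacts was not tested. The promoter windows shown above differ in CACCC and GATAA letters, from which nothing follows for these contacts.

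**Figure D5:**
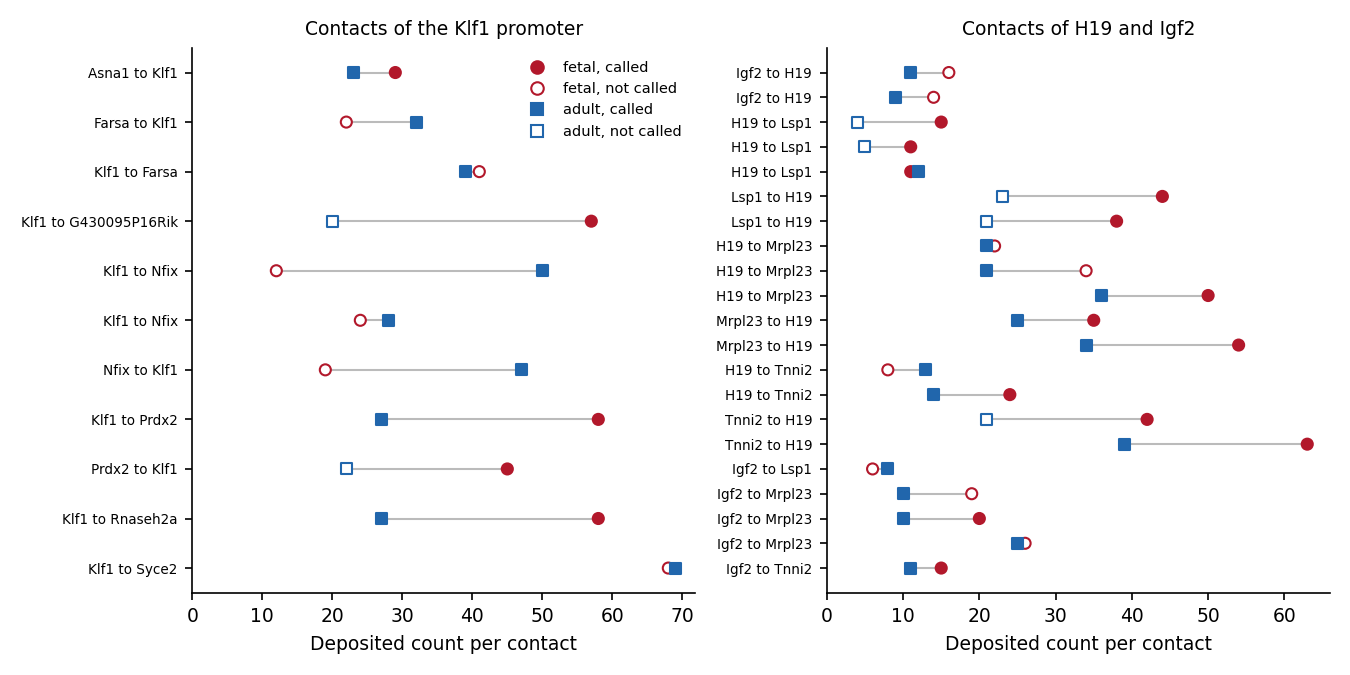
Deposited counts of each contact of Klf1 (left) and of H19 and Igf2 (right) in fetal (circles) and adult HSCs (squares), with filled symbols where the contact was called. The label gives the captured promoter first, and Klf1 to Rnaseh2a repeats the contact with Prdx2, which shares its bin. Klf1 to Nfix shows 12 fetal and 50 adult counts, and Tnni2 to H19 reaches 63 fetal and 39 adult counts.

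H19 and Igf2 on chromosome 7 contacted each other and the promoters of Tnni2, Mrpl23 and Lsp1. Of 21 contacts, 18 had a higher fetal and 3 a higher adult count, with 8 called in both populations, 5 in fetal only and 8 in adult only. The 21 include neighbouring bins and both ends of the same pairs. Over all members the raw counts also leaned to fetal, with a median log2 count ratio of 0.07 in the first batch and 0.17 in the second. Tnni2 (a muscle troponin) to H19 had 63 and 39 counts at 138 kb, and its RNA was 3.596 FPKM in fetal and 0.997 in adult HSCs. H19 to Mrpl23, a mitochondrial ribosomal protein gene at 25.7 and 21.5 FPKM, had 50 and 36 counts. The 95% interval of the fetal share lay above that of the batch for H19 to Lsp1 (15 and 4 counts), Lsp1 to H19 (44 and 23) and Tnni2 to H19 (42 and 21 in a neighbouring bin). For the other contacts of the region, those with 63 and 39 and with 50 and 36 counts included, it held the share of the batch.

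Other fetal genes gave fewer contacts. Igf2bp3, an RNA-binding protein gene of the fetal programme, had 6.29 FPKM in fetal and 0.159 in adult HSCs. Its contact with 2410003K15Rik (5.88 and 1.56 FPKM) had 133 fetal and 55 adult counts from Igf2bp3, and 92 and 48 from the partner. Both fetal shares, 70.7% (63.7% to 77.1%) and 65.7% (57.2% to 73.5%), lay above that of the batch. Hmga2, a chromatin protein of fetal stem cells, had 28.2 and 1.75 FPKM. It was contacted in fetal only by Irak3, with 10 against 2 counts, and by Llph, with 12 against 4. Irak3 had 2.68 FPKM in fetal and 7.89 in adult HSCs, opposite to Hmga2. At these counts the fetal shares of both contacts hold the share of the batch. Igf2bp2/Tra2b was called in fetal only with 10 and 5 counts.

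Regulators of adult and fetal stem cells gave contacts of either order. Hoxa9, a homeobox factor of stem cells, had 11 contacts with 4 partner genes. Cbx3, which encodes a heterochromatin protein, contacted it over 755 kb with 11 fetal and 31 adult counts, a fetal share of 26.2% (13.9% to 42.0%). Neighbouring bins at Hoxa9 had 10 and 13 and 12 and 7 counts, so the order changed within a few kb. Skap2 to Hoxa9 had 24 and 26 counts. Tal1, a master factor of blood formation, contacted Pdzk1ip1 with 31 and 41 counts from Tal1 and 64 and 96 from Pdzk1ip1, the latter with a fetal share (32.3% to 48.0%) below that of its batch. Pdzk1ip1 had 7.51 FPKM in fetal and 24.1 in adult HSCs, while Tal1 had 26.7 and 30.4. Ets1/Fli1, neighbouring ETS factors, had 12 and 14 counts from Ets1 and 4 and 14 from Fli1. Foxo3/Sesn1, the latter a stress gene, had 8 and 16 counts from Sesn1 and 8 and 7 from Foxo3.

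Gata2 and Gfi1 gave mixed results. Gata2, a stem cell factor at 21.9 and 57.3 FPKM, was contacted by Mcm2, a replication helicase gene 700 kb away, in fetal only with 32 against 13 counts. With Ruvbl1 it had 18 and 15 counts from Gata2 and 16 and 15 from Ruvbl1. Gfi1, a repressor with 10.1 FPKM in fetal and 1.38 in adult HSCs, was called with Mtf2 in adult only, with 7 and 15 counts from Gfi1 and 9 and 14 from Mtf2. It was called with Rpl5 in fetal only from Gfi1, with 13 and 4 counts, and with Rpap2 in both populations, with 22 and 19 and with 11 and 22 counts from separate Gfi1 fragments. The fetal shares of the Mtf2 and Rpl5 contacts held that of the batch.

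The gene copies Tgtp1/Tgtp2, Ms4a6b/Ms4a6c and Trim12a/Trim12c set aside, the pairs with the largest count ratios included the following. Ern1/Tcam1 had 40 fetal and 4 adult counts from Ern1 at 211 kb, a fetal share of 90.9% (78.3% to 97.5%), but 30 and 14 from Tcam1. Ern1, a sensor of unfolded proteins, had 2.91 FPKM in fetal and 8.55 in adult HSCs. Csrp2/Osbpl8 had 37 and 4 counts from Osbpl8 and 36 and 6 from Csrp2, with Csrp2 higher in fetal and Osbpl8 higher in adult HSCs. In the other direction, Pcmtd1/Rrs1 had 4 and 27 counts over 2456 kb and Prkacb/Syde2 9 and 43 counts over 824 kb. Prkacb, a catalytic subunit of protein kinase A, had 8.69 and 18.2 FPKM, and Syde2 0.523 and 1.84. Ddb1/Prpf19 had 8 and 31 counts, while both genes were higher in fetal HSCs (72.1 and 43.7, and 57.1 and 34.4 FPKM). These pairs were picked for their counts, so the size of the difference is a description.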

How the data were processed

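Promoter Capture-C of fetal liver and adult bone marrow HSCs was analysed from a single table. Per the submitters' processing notes, reads were handled with Trim Galore 0.41 and Bowtie2 2.2.2 on mm9. The caller is named LiMACC in the table's name, and its settings are not given in the sources used here. For each contact, population and batch the authors give a count in whole numbers. The deposited score resembles a −log10 value and is 0 where a contact was not called. They also deposited FPKM per promoter and 0 or 1 marks of distal bins, of which the making is not given in the sources used here. The authors' deposited table also marks genes of differential expression. Of its columns of values, 18 were mapped to a population and 0 were not.

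From these, with Python 3.11.15, pandas 2.3.3 and scipy 1.17.1, contacts were joined to captured fragments that overlap their bin by any length. A gene pair takes its counts from its contact with the highest score in either population, and its call from all its contacts. The members, lists and thresholds were chosen with earlier results of these data known. No test was run, since no value per library is given. Log2 count ratios have 1 added and expression changes use log2(FPKM + 1), which understates changes of low genes. The fetal share of a contact's counts is set beside that of its batch. Pairs of captured genes with no listed contact within 1 Mb serve as background, whatever the marks of their promoters. Named pairs are the 5 with the highest lower score, the largest and smallest count ratio (at least 30 counts), the largest joint expression change in each direction, the longest, and all pairs of listed regulators and families. Not every one is reported, and pairs named beyond these were chosen after their values were seen. Of 3374 names, 3046 matched a RefSeq symbol and 301 a synonym. The joining steps were tested on simulated data. Alternatives covered distance, overlap, score, FPKM and pseudocount. Results for some genes are not reported here.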

Additional observations from a re-analysis of the deposited data

How the results depend on the processing

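The number of contacts between captured promoters became 8163 with bins widened by 2 kb on each side, and stayed within 1.5 times the reported number under the other 4 alternatives. Pooled over batches, the share called in both populations was 46.8%. It was 40.2% and 53.3% by batch, 52.4%, 58.1%, 37.6% and 25.1% from the nearest to the farthest distance class, and 44.9% at a score 1.0 higher, where all contacts had 31.8%. In splits chosen after seeing the data it was 48.9% with the partner captured in the same batch and 42.9% with it captured in the other batch only. Both genes at FPKM 1 or more held for 81.4% of pairs of the first and 72.5% of the second batch in fetal HSCs. At FPKM 0.1 the fetal and adult shares were 98.3% and 96.2%, and at FPKM 5 they were 37.2% and 38.3%. The share of changed pairs that went the same way fell to 58.9% with any difference and to 50.8% over 150 kb. It was 64.5% without family pairs, 73.0% with 1 pair per gene and, chosen after seeing the data, 67.6% without chromosome 17. With fragments of different batches kept, 69.4% of links were seen from both ends. Median count ratios kept their sign with 10 added to the counts. No paired analysis was possible because the deposited columns are pooled over libraries. Depth limits single contacts: for 97 contacts of listed regulators the interval of the fetal share held that of the batch. Near-identical gene copies add uncertainty that counts do not show.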
